A study of Mus musculus with 8 samples.

Results

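The p53 pathway and its death program were examined through 10 genes in mouse kidneys treated with CHIR99021. These genes are *Trp53*, *Mdm2*, *Cdkn1a*, *Ccng1*, *Phlda3*, *Sesn2*, *Bax*, *Bbc3*, *Pmaip1* and *Fas*, taken by gene name from the 30890 genes of the count table, and all 10 were found and passed the filter on low counts. CHIR99021 is a small molecule inhibitor of the kinase GSK-3, given as GSK-3β in the study. When this kinase is blocked, β-catenin is no longer destroyed and Wnt/β-catenin signaling is active without a Wnt ligand. Whole kidneys of C57BL/6 embryos were removed at the gestational stage E12.5, grown on a filter floating on medium, and exposed for 72 h either to 5 μM CHIR99021 or to 0.1% DMSO. RNA of 4 samples per group was sequenced. In the study the left kidney of an embryo served as control and the right one was treated. Samples with the same replicate number were therefore also compared as pairs, although the labels do not say that they share an embryo. The kidneys carried no transgene or engineered allele according to the labels, and kidneys that lacked the usual response of Wnt/β-catenin target genes had been excluded by the study, so the treated group is a selected one.

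p53, the product of *Trp53*, is a transcription factor that is kept scarce by MDM2, a ubiquitin ligase that sends it to the proteasome. DNA damage, ribosomal stress and oncogene activity free p53 from MDM2, and p53 then switches on genes that halt the cell cycle, repair DNA or start apoptosis, as well as *Mdm2* itself, which closes a feedback loop. p53 is controlled mainly at the protein level, which RNA sequencing does not measure. In the developing kidney p53 is known to act in nephron progenitors and in the ureteric bud, and excess p53 in the embryo impairs kidney growth.

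p53 binds DNA through a half-site of 10 bases, made of 3 purines, a C, 2 bases that are A or T, a G and 3 pyrimidines, and a full response element is a pair of such half-sites. The half-site is its own reverse complement, so both strands were searched at once. In the 250 bases before the RefSeq transcription starts (GRCm38.p6), which were on hand for 9 of the 10 genes, an exact half-site lay before *Bax*, *Ccng1*, *Cdkn1a*, *Mdm2* and *Trp53*, that is 5 of 9 genes. Of all 27025 genes with such a window, 8.20% held one. A full element of 20 bases, with the half-sites side by side and at most 2 mismatches, lay before *Ccng1* and *Cdkn1a*, against 0.788% of all genes. These are matches of letters in a short window, and the data hold no measurement of binding. The windows of 5 genes whose expression changed are printed below 5′ to 3′, to show where such matches stand and where there are none. Half-sites and full elements are in capitals.
*Cdkn1a*, chr17:29090729-29090978, plus strand: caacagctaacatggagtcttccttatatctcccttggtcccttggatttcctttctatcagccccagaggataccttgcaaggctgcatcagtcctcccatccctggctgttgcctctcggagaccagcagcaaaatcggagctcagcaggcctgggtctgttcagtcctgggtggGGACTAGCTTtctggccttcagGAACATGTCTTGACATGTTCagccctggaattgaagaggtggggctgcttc
*Ccng1*, chr11:40755287-40755536, minus strand: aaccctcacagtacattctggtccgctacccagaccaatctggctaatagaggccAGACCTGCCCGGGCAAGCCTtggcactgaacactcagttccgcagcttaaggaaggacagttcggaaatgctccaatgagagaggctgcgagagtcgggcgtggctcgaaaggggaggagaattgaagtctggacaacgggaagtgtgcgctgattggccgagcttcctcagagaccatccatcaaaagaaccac
*Mdm2*, chr10:117710759-117711008, minus strand: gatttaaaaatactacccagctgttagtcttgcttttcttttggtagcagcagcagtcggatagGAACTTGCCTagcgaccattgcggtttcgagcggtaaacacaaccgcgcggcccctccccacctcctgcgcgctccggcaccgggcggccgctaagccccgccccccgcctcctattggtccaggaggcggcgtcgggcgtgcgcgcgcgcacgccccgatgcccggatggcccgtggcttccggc
*Phlda3*, chr1:135765835-135766084, plus strand: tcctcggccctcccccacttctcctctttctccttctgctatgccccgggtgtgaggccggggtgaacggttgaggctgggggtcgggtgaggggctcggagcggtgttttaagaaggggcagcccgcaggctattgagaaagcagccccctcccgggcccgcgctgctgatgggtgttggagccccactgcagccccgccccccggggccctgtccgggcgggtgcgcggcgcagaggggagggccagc
*Bbc3*, chr7:16309333-16309582, plus strand: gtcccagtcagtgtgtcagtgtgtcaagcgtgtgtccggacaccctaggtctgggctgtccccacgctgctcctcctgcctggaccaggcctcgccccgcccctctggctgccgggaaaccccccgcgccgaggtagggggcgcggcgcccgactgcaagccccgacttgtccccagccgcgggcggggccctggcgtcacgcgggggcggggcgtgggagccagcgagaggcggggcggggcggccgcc

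The *Cdkn1a* window is that of the more distant of its annotated starts. It holds a lone half-site, GGACTAGCTT, that begins 73 bases before the start, and the element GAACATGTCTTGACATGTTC, with 1 mismatch to the consensus, that begins 51 bases before it. The *Ccng1* element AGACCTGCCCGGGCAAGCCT also has 1 mismatch and begins 195 bases before the start, and the last 25 bases of that window lie in an exon of the annotation used here. The *Mdm2* half-site GAACTTGCCT begins 186 bases before the start. No exact half-site was in the windows of *Phlda3* or *Bbc3*. The core motif of TCF/LEF factors, the DNA-binding partners of β-catenin (CTTTGAT, either strand), was in none of the 9 genes' windows and in 3.72% of all genes, and a GC box (GGGCGG, either strand), the site of Sp1-type factors, was in those of 7 of the 9 genes and in 35.4% of all genes.

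Between 14599082 and 17751992 counts were assigned to genes in each DMSO-treated sample and between 14616300 and 16872129 in each CHIR99021-treated sample. Of 16723 genes tested with edgeR's quasi-likelihood test, 48.7% passed an adjusted p of 0.05, with 23.7% higher and 25.0% lower after CHIR99021. The Wnt/β-catenin targets *Axin2*, *Lef1*, *Notum*, *Nkd1* and *Sp5* rose with log2 fold changes of 2.90 to 7.53, but these samples had been selected on such genes. Levels below are CPM (counts scaled to a common library size by TMM, which corrects for the composition of a library) as mean ± SD over n = 4 samples, and log2FC is the log2 fold change of CHIR99021-treated over DMSO-treated samples, given ± its standard error. When counts were scaled by library totals alone, the median gene moved by -0.14 on the log2 scale and 29.0% of the called genes were higher, against 48.6% with TMM.

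Of the 10 genes, 5 rose, 1 fell and 4 did not pass the test. *Cdkn1a*, *Phlda3*, *Pmaip1*, *Ccng1* and *Mdm2* were higher in the CHIR99021-treated kidneys, by 1.20- to 1.94-fold, and *Bbc3* was 1.50-fold lower. *Trp53* itself, *Sesn2*, *Bax* and *Fas* were not called. No gene of the 10 had an absolute log2 fold change over 1, the study's own cutoff, in this fit. Of all 16723 tested genes, 2309 were called with such a change, which is 28.4% of the called genes. *Cdkn1a* came nearest and reached up to 1.07 in the alternatives. Thus 6 of 10 were called, where 48.7% of all tested genes were, and 5 rose and 1 fell, where 23.7% and 25.0% of all did. For 4 genes every treated sample lay above every control and for 1 gene below, or 5 of 10 without overlap, against 22.7%, 23.4% and 46.1% of all tested genes. The median log2 fold change of the 10 genes was 0.17, against -0.0029 over all tested genes. With library totals alone as the scale the count was 2 higher and 3 lower, since *Mdm2*, *Pmaip1* and *Ccng1* were no longer called and *Trp53* and *Fas* were called lower. On that scale 2507 of all 16723 tested genes were called higher and 6140 lower.

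**Figure D1:**
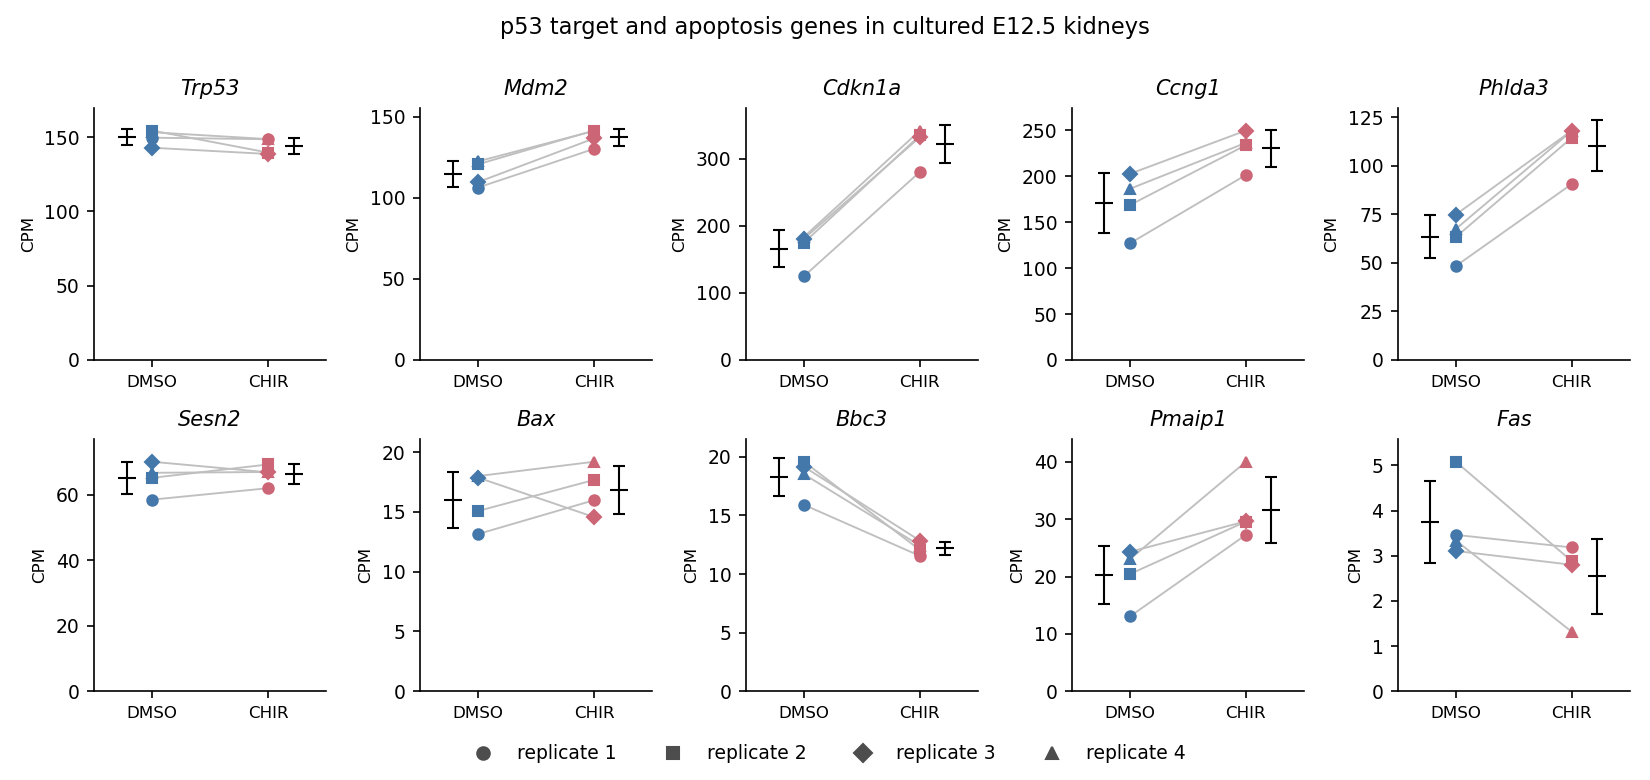
CPM of the 10 genes in each sample (y axes start at 0), DMSO-treated samples in blue and CHIR99021-treated samples in red, with a marker shape and a grey line for each replicate number and bars for the mean ± SD of 4 samples. The groups lie apart for *Cdkn1a*, *Phlda3*, *Pmaip1*, *Mdm2* and *Bbc3*, and replicate 1 (circles) lies lowest of its group in most panels.

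*Trp53* lies on chromosome 11 from 69580359 to 69591873 of GRCm38. It stood at 149.6, 154, 143 and 153 CPM in DMSO replicates 1 to 4 and at 149, 139.6, 139 and 149 CPM in the CHIR99021-treated samples. The groups overlapped, although the treated sample was the lower one in 4 of 4 pairs. Mean levels were 150.1 ± 5.22 and 144 ± 5.50 CPM, with a log2 fold change of -0.06 (95% confidence interval -0.16 to 0.04, adjusted p = 0.299). The size of the difference followed the scaling, at -0.20 with library totals alone (adjusted p = 0.00304) and -0.15 with limma on quantile-normalized log2 counts (adjusted p = 0.0456), where it passed the test. With samples paired by replicate number in that limma fit, *Trp53* did not pass (adjusted p = 0.0854). In *Trp53*, 3.95% of the 50-base stretches of its exons also occur in transcripts of other genes, 205 in all, and reads from these cannot be assigned with certainty. The same holds for 8.49% of the stretches in *Cdkn1a*, 8.51% in *Bax* and 1.32% in *Mdm2*, and for 5.25% in *Bcl2*, described below.

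*Mdm2*, the p53 target that also removes p53, is on chromosome 10 from 117688875 to 117710758. Its level was 106, 121, 109.7 and 122 CPM in DMSO replicates 1 to 4 against 130.1, 141, 137 and 141 CPM after CHIR99021. Every treated sample was above every control, by a small margin. The mean went from 115 ± 7.98 to 137 ± 5.31 CPM (log2FC 0.26 ± 0.056, adjusted p = 0.00182). The call was lost with library totals alone (log2 fold change 0.12, adjusted p = 0.0814) and in limma on log2(FPKM + 1) (0.12, adjusted p = 0.121) and log2(FPKM + 0.1) (0.13, adjusted p = 0.143).

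The largest rise among the 10 genes was that of *Cdkn1a*, which encodes p21, the inhibitor of cyclin-dependent kinases through which p53 halts the cell cycle. The gene lies on chromosome 17 from 29090979 to 29100722. It had 125, 175, 181 and 184 CPM in DMSO replicates 1 to 4 and 280.4, 335, 332 and 342 CPM in the CHIR99021-treated samples. The groups did not overlap, and in both of them replicate 1 was the low sample. The mean rose from 166 ± 27.7 to 322 ± 28.3 CPM (log2FC 0.96 ± 0.12, adjusted p = 0.000229), which is 1.94-fold with a 95% confidence interval of 1.59 to 2.36. Within pairs the log2 difference was 1.17, 0.94, 0.88 and 0.90. An annotated transcript on the opposite strand, AC167363.2, covers 7.68% of the exon bases of *Cdkn1a*, and without the strand setting of the counting, reads there cannot be told apart.

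*Phlda3* encodes a small protein that competes for membrane lipids with the survival kinase AKT and so restrains it. On chromosome 1 from 135766119 to 135769136, it had 48.4, 63.4, 74.9 and 67.5 CPM in DMSO replicates 1 to 4 and 90.7, 115, 118 and 118 CPM after CHIR99021. Again the groups lay apart and replicate 1 was lowest on both sides. The mean rose from 63.6 ± 11.2 to 110.4 ± 13.2 CPM (log2FC 0.80 ± 0.14, adjusted p = 0.00131), with pair differences of 0.91, 0.85, 0.66 and 0.81 on the log2 scale.

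*Ccng1* encodes cyclin G1, which with a phosphatase acts on MDM2 in the feedback loop, and lies on chromosome 11 from 40748552 to 40755311. It stood at 127, 169, 203 and 186 CPM in DMSO replicates 1 to 4 and at 201, 234, 249.6 and 236 CPM in the treated samples. Treated replicate 1 fell just below DMSO replicate 3, so the groups overlapped, while within each of the 4 pairs the treated sample was higher. The log2 fold change was 0.43 (standard error 0.14, adjusted p = 0.0341), from 171 ± 32.5 to 230.2 ± 20.5 CPM. This call was among the least stable. It was lost in 7 of the 13 alternatives other than leaving out a single sample (adjusted p up to 0.126) and when DMSO replicate 2 or CHIR99021 replicate 2, 3 or 4 was left out (adjusted p = 0.0712 to 0.0770). It was kept when samples were paired by replicate number (log2 fold change 0.44, adjusted p = 9.71e-05).

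*Sesn2* encodes sestrin 2, a stress protein that restrains the growth kinase mTORC1 and answers to ATF4 as well as to p53. On chromosome 4 from 132492032 to 132510501, it ranged from 58.5 to 70.1 CPM with DMSO and from 62.0 to 69.3 CPM with CHIR99021. The ranges lay on top of each other. Its log2 fold change was 0.03 (95% confidence interval -0.11 to 0.16, adjusted p = 0.765), so that a change beyond 1.12-fold in either direction lies outside the interval with TMM scaling. The sign of this value was not fixed and turned to -0.11 with library totals alone.

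The proteins BAX, PUMA and NOXA belong to the BCL-2 family, which decides over the release of cytochrome c from mitochondria. BAX forms the pore, while PUMA (*Bbc3*) and NOXA (*Pmaip1*) are BH3-only proteins that neutralize the guards of survival. The 3 genes moved in different ways. *Pmaip1* rose, *Bbc3* fell, and *Bax* was not called.

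*Bbc3*, on chromosome 7 from 16308393 to 16318205, was the one gene of the 10 that fell. It had 15.9, 19.6, 19.2 and 18.5 CPM in DMSO replicates 1 to 4 and 11.5, 12.0, 12.8 and 12.4 CPM after CHIR99021. All treated samples were below all controls. The mean went from 18.3 ± 1.65 to 12.2 ± 0.553 CPM (log2FC -0.58 ± 0.094, adjusted p = 0.000215) on 179 to 343 counts per sample. Together with *Cdkn1a* and *Phlda3* it kept its direction and its call in all 21 alternatives, and here the adjusted p was at most 0.00581.

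*Pmaip1*, on chromosome 18 from 66458604 to 66465550, had 13.0, 20.4, 24.3 and 23.0 CPM in DMSO replicates 1 to 4 and 27.3, 29.6, 29.6 and 40.0 CPM after CHIR99021. The groups did not overlap, with treated replicate 4 well above the rest. The mean rose from 20.2 ± 5.04 to 31.6 ± 5.71 CPM (log2FC 0.65 ± 0.20, adjusted p = 0.0249). The log2 difference varied between pairs, from 0.29 in replicate 3 to 1.06 in replicate 1. The call was lost without DMSO replicate 2 (adjusted p = 0.0554) or CHIR99021 replicate 4 (adjusted p = 0.0534) and in 5 further alternatives, with a log2 fold change of 0.48 to 0.76 in all of those.

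*Bax*, on chromosome 7 from 45461697 to 45466898, had 13.1, 15.1, 17.9 and 18.0 CPM in DMSO replicates 1 to 4 and 16.0, 17.7, 14.6 and 19.2 CPM with CHIR99021. The groups overlapped over most of their range, and 3 of 4 pairs were higher with treatment. The log2 fold change was 0.08 (95% confidence interval -0.19 to 0.34, adjusted p = 0.638) on 203 to 305 counts per sample, and its sign turned with the scaling (-0.06 with library totals alone). *Bax* shares 12.2% of its exon bases on the same strand with the annotated gene *Gm45808*, so a part of its reads may have been left uncounted or given to that gene.

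*Fas*, on chromosome 19 from 34290659 to 34327770, encodes the death receptor that p53 can induce at the cell surface. It was the least abundant of the 10 genes, with 20 to 89 counts per sample. Its level was 3.46, 5.08, 3.10 and 3.34 CPM in DMSO replicates 1 to 4 and 3.18, 2.88, 2.80 and 1.31 CPM after CHIR99021. All 4 pairs were lower with treatment, yet the groups overlapped through treated replicate 1. The log2 fold change of -0.56 (95% confidence interval -1.14 to 0.02) did not pass the test (adjusted p = 0.101), and it did so with library totals alone (-0.69, adjusted p = 0.0416) and in limma on log2(FPKM + 1) (-0.45, adjusted p = 0.0390). At this depth neither an unchanged level nor a fall by 2-fold was outside the interval.

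**Figure D2:**
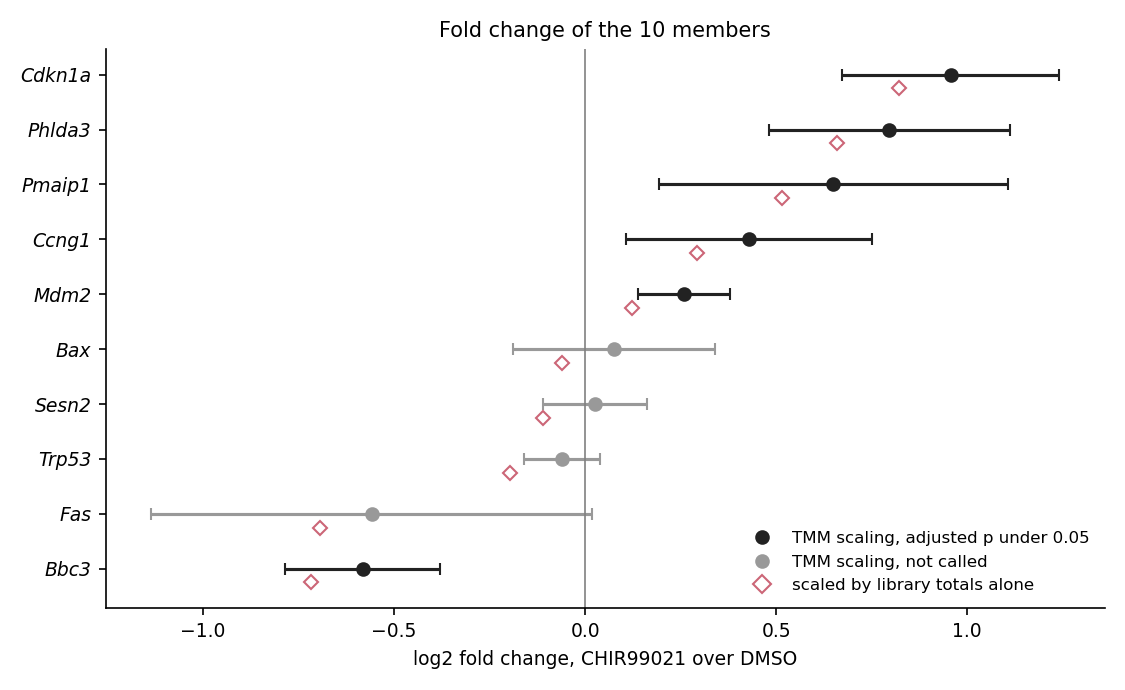
Log2 fold change (CHIR99021 over DMSO, x axis) of the 10 genes with 95% confidence intervals; black circles passed an adjusted p of 0.05, grey circles did not, and open red diamonds give the value with library totals alone as the scale. *Cdkn1a* stands highest at 0.96 and *Bbc3* lowest at -0.58, and the diamonds lie to the left of the circles throughout.

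Compared per length, as FPKM (fragments per kilobase and library size), *Cdkn1a* was the most abundant of the 10 transcripts in both groups, at 58.5 to 86.4 (mean 78.2) with DMSO and 119.8 to 148 (mean 138) with CHIR99021. In the controls it was followed by *Ccng1* (51.0 FPKM), *Phlda3* (42.7 FPKM) and *Trp53* (38.8 FPKM), and each of these overlapped with its neighbour in rank. *Mdm2* (23.6 FPKM) and *Sesn2* (19.6 FPKM) followed, each apart from its neighbours. *Bax*, *Bbc3* and *Pmaip1* lay close together at 10.6, 9.01 and 7.99 FPKM with overlapping ranges, and *Fas* came last at 2.17 FPKM. After CHIR99021 *Cdkn1a* was apart from the second gene, *Phlda3* (67.4 FPKM), which overlapped with *Ccng1* (62.4 FPKM), and *Pmaip1* (11.4 FPKM) stood above *Bbc3* (5.48 FPKM), whose order was the reverse in the controls.

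Within each group the 10 genes tended to be low in the same sample. DMSO replicate 1 was the lowest control for 8 of 10 genes, whereas it was lowest for 27.4% of all tested genes. CHIR99021 replicate 1, the sample with the same number, was the lowest treated one for 7 of 10 genes, against 26.7% of all. In 30 other p53 targets, described next, replicate 1 was likewise lowest for 18 genes in the DMSO group and for 18 in the CHIR99021 group. In other lists replicate 1 was lowest with DMSO for 6 of 13 ATF4 genes, 2 of 12 BCL-2 family genes and 1 of 16 cell cycle genes, and with CHIR99021 for 0 of 13, 2 of 12 and 3 of 16. Genes read from the same library are not independent of each other, and these counts were made after the values had been seen.

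The 30 other p53 targets were taken from textbook knowledge, and 11 of them rose and 3 fell, with a median log2 fold change of 0.25. Of all tested genes, 48.7% were called, 23.7% higher and 25.0% lower, so the share of these targets that was called is near that of all genes. Among those that rose were *Dram1*, a lysosomal protein that promotes autophagy, from 12.0 ± 1.05 to 30.7 ± 3.61 CPM (log2FC 1.35 ± 0.10, adjusted p = 3.37e-07), *Gadd45a*, a DNA damage sensor, from 15.1 ± 0.786 to 29.5 ± 2.75 CPM (log2FC 0.96 ± 0.084), and *Trp53inp1*, a nuclear cofactor of p53, from 98.5 ± 10.4 to 183 ± 12.4 CPM (log2FC 0.89 ± 0.076). For all of them each treated sample was above each control. *Sulf2*, a sulfatase that trims heparan sulfate at the cell surface, fell from 265 ± 22.7 to 103 ± 14.2 CPM (log2FC -1.36 ± 0.10, adjusted p = 2.78e-06). *Plk2*, a kinase of centriole duplication, and *Steap3*, a metalloreductase that handles iron, fell with log2 fold changes of -0.45 and -0.52.

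When samples were paired by replicate number (as a block in the fit), 15 of the 30 targets rose and 3 fell. In that fit 4096 of all 16723 tested genes were called higher and 4376 lower. The 4 added genes were the nuclease *Aen* (log2 fold change 0.29, adjusted p = 0.0665, and 0.000913 with the block), the death receptor *Eda2r* (0.42, 0.0677 and 0.000202), the stress cytokine *Gdf15* (0.57, 0.165 and 0.00216) and the thiamine transporter *Slc19a2* (0.25, 0.142 and 0.0450), all named after their values were seen. *Gdf15* shows how the pairing enters. It had 13.7, 25.4, 33.6 and 27.1 CPM in DMSO replicates 1 to 4 and 24.3, 43.8, 36.3 and 43.3 CPM with CHIR99021, so that the groups overlapped while the treated sample was higher in each pair. With library totals alone 7 of the 30 rose and 5 fell, where 2507 and 6140 of all 16723 tested genes did.

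**Figure D3:**
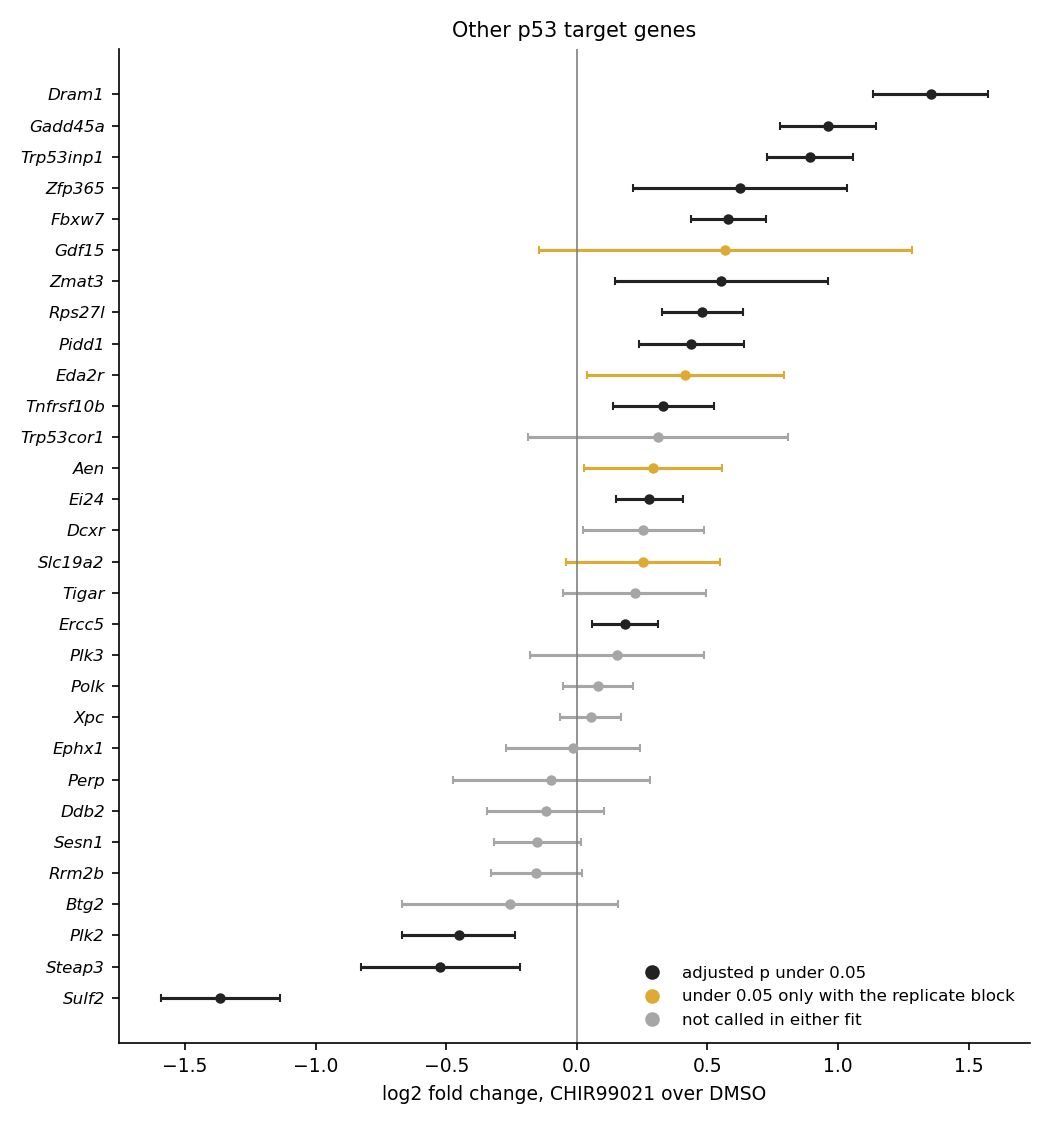
Log2 fold change (CHIR99021 over DMSO, x axis) with 95% confidence interval of 30 other p53 targets, ordered by value; black passed an adjusted p of 0.05, yellow passed it only in the paired fit and grey in neither. Values run from -1.36 for *Sulf2* to 1.35 for *Dram1*, with 11 black points on the right and 3 on the left.

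Of 19 genes that act on p53, 3 were higher and 6 lower, where 23.7% and 25.0% of all tested genes were. The share of them that was called is near the 48.7% of all genes. *Rpl5* and *Rpl11*, ribosomal proteins that bind MDM2 when ribosome assembly is disturbed, rose with log2 fold changes of 0.59 (standard error 0.048, adjusted p = 6.92e-07) and 0.45 (standard error 0.055, adjusted p = 2.33e-05). *Cdkn2a*, which encodes both the MDM2 inhibitor ARF and the kinase inhibitor p16, had 5 counts over the 4 DMSO-treated samples and 84 over the 4 treated ones, at 1.12 to 1.65 CPM, too few in the controls for a fold change to be read. *Cdkn2a* passed the filter on low counts through the treated samples alone, so its place among the higher genes carries no weight. The damage kinase *Atr* fell from 91.5 ± 4.52 to 62.5 ± 3.55 CPM (log2FC -0.55 ± 0.057, adjusted p = 5.50e-06). The other genes that fell were *Atm*, *Chek1*, *Hipk2* and the p53 relatives *Trp63* and *Trp73*. The log2 fold changes of *Trp63* and *Trp73* were -1.71 and -1.17. Their size depended on the processing, with weakest values of -0.52 and -0.19 among the 21 alternatives. With library totals alone the count that fell was 11, and 3 rose, where 6140 of all 16723 tested genes fell and 2507 rose.

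*Bcl2*, the founding survival gene of its family and a guard against BAX, fell from 72.4 ± 8.11 to 18.3 ± 1.25 CPM (log2FC -1.98 ± 0.086, adjusted p = 2.58e-09), or 3.96-fold. Its samples stood at 84.3, 67.5, 67.1 and 70.6 CPM with DMSO and at 17.5, 17.6, 20.2 and 17.9 CPM with CHIR99021, far apart. The ratio of *Bax* to *Bcl2* counts, in which the size of the library cancels, was 0.156, 0.223, 0.266 and 0.255 in DMSO replicates 1 to 4 and 0.911, 1.00, 0.722 and 1.07 in the treated samples. Its mean went from 0.225 ± 0.0496 to 0.927 ± 0.151. Counts are not corrected for length, and the annotated exons cover 1576 bases in *Bax* and 9157 in *Bcl2*. The change in the ratio can therefore be read, but not which of the transcripts was more abundant. The mean of the log2 ratios differed by 2.06, with a p = 0.0286 in a two-sided exact permutation test, the smallest that 4 against 4 samples can give. A test that flips signs within the 4 pairs, a design with a smallest p of 0.125, gave that p = 0.125 (exact permutation). Of the pair, *Bcl2* alone passed the test across all genes. RNA levels give no measure of the amount of either protein.

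**Figure D4:**
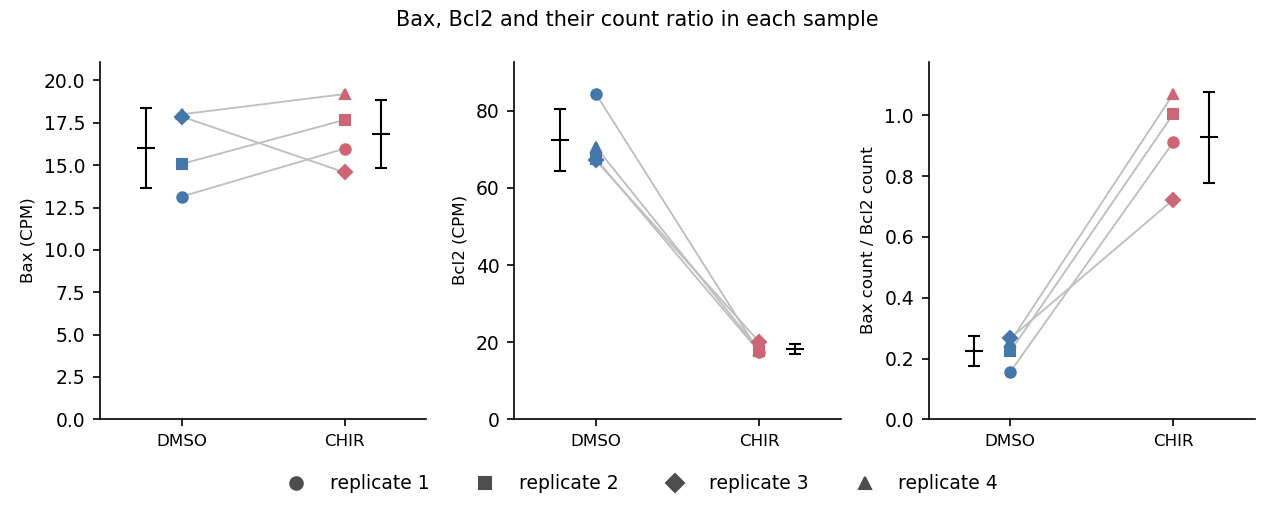
*Bax* and *Bcl2* in CPM and the ratio of their counts (y axes start at 0) in each sample, with a marker shape and a grey line per replicate number and bars for the mean ± SD of 4 samples. *Bax* overlaps between groups, *Bcl2* lies at 67.1 to 84.3 CPM with DMSO and 17.5 to 20.2 CPM with CHIR99021, and the ratio goes from 0.225 to 0.927. CPM and counts are not corrected for transcript length.

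Of the 12 genes of the BCL-2 family list, which holds *Bcl2*, 2 rose, and *Bcl2* was the 1 gene called lower. Over all tested genes 23.7% were higher and 25.0% lower. *Bok*, a pore former related to BAX, rose from 18.8 ± 2.81 to 56.7 ± 9.79 CPM (log2FC 1.60 ± 0.13, adjusted p = 4.79e-06), and *Bmf*, a BH3-only protein tied to the cytoskeleton, from 80.0 ± 6.67 to a mean of 189 CPM, in samples of 166 to 217, (log2FC 1.24 ± 0.083, adjusted p = 3.57e-07). The survival gene *Bcl2l1* (BCL-XL) had a log2 fold change of -0.18 (adjusted p = 0.0579). With this pairing, 3 rose and 2 fell, with *Hrk* (adjusted p = 0.0420) and *Bcl2l1* (adjusted p = 0.0417) added. The paired fit called 4096 of all 16723 tested genes higher and 4376 lower. The count was also 3 and 2 without DMSO replicate 1 and without DMSO replicate 3. It was 2 higher and 4 lower with library totals alone, where 2507 and 6140 of all 16723 tested genes were.

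Downstream of mitochondria, 16 genes of caspases, the apoptosome and their inhibitors were counted. Of these, 1 rose and 2 fell, where 23.7% and 25.0% of all tested genes did, and the median log2 fold change was -0.0015. *Apaf1*, the scaffold of the apoptosome and a p53 target, rose from 79.7 ± 6.02 to 96.8 ± 5.22 CPM (0.28 on the log2 scale, adjusted p = 0.00230). Cytochrome c (*Cycs*, -0.28) and the caspase inhibitor *Xiap* (-0.15) fell. With library totals alone 7 fell, where 6140 of all 16723 tested genes did, and *Apaf1* was not called (0.14, adjusted p = 0.0792).

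In the death receptor pathway, to which *Fas* belongs, 3 of 10 tested genes fell and 0 rose by edgeR, DESeq2 and limma-voom, while 3 were higher at an unadjusted p under 0.05. Over all genes tested by edgeR 25.0% fell and 23.7% rose. *Tnfsf10*, which encodes the ligand TRAIL, fell from 8.40 ± 2.89 to 1.67 ± 0.730 CPM (log2FC -2.31 ± 0.35, adjusted p = 0.000299), the receptor *Tnfrsf25* from 2.47 ± 0.451 to 0.884 ± 0.410 CPM (log2FC -1.47 ± 0.31) and the adaptor *Traf2* by 0.27 on the log2 scale. *Fasl*, the ligand of FAS, had 1 count in DMSO replicate 1 and 1 in CHIR99021 replicate 4 and was not tested. Without CHIR99021 replicate 3 the counts were 1 higher and 4 lower, and without CHIR99021 replicate 4 they were 2 and 3.

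Genes of the cell cycle and of the ATF4 stress response, which share members or regulators with the 10 genes, were counted as well, where 23.7% of all tested genes were higher and 25.0% lower. Of 16 cell cycle genes that are repressed downstream of p21, 12 fell and 0 rose by edgeR, DESeq2 and limma-voom (0 higher also at an unadjusted p under 0.05), with a median log2 fold change of -0.42. *Mki67*, the marker of proliferating cells, fell from 464 ± 34.9 to 268 ± 30.6 CPM (log2FC -0.79 ± 0.082, adjusted p = 1.04e-05), and the S-phase genes *Mcm5* (-0.66) and *Ccna2* (-0.63) and the mitotic gene *Cdc20* (-0.58) fell as well. Of 13 genes of the ATF4 stress response, which shares *Sesn2*, *Bbc3* and *Pmaip1* as targets with p53, 9 fell and 2 rose. *Chac1*, an enzyme that degrades glutathione, had a log2 fold change of -1.77 (standard error 0.18, adjusted p = 7.71e-06), *Mthfd2*, a mitochondrial folate enzyme, of -0.92, *Phgdh*, the first enzyme of serine synthesis, of -0.77 and the pseudokinase *Trib3* of -0.76. *Ddit4*, an inhibitor of mTORC1 that p53 also induces, rose (0.55, adjusted p = 0.000161), as did the cystine transporter *Slc7a11*, which p53 represses (1.47, adjusted p = 0.0273). DMSO replicate 4 stood at 28.9 CPM for *Slc7a11*, against 8.82 to 9.19 CPM in the other controls, and its call was lost on leaving out any sample but that one.

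**Figure D5:**
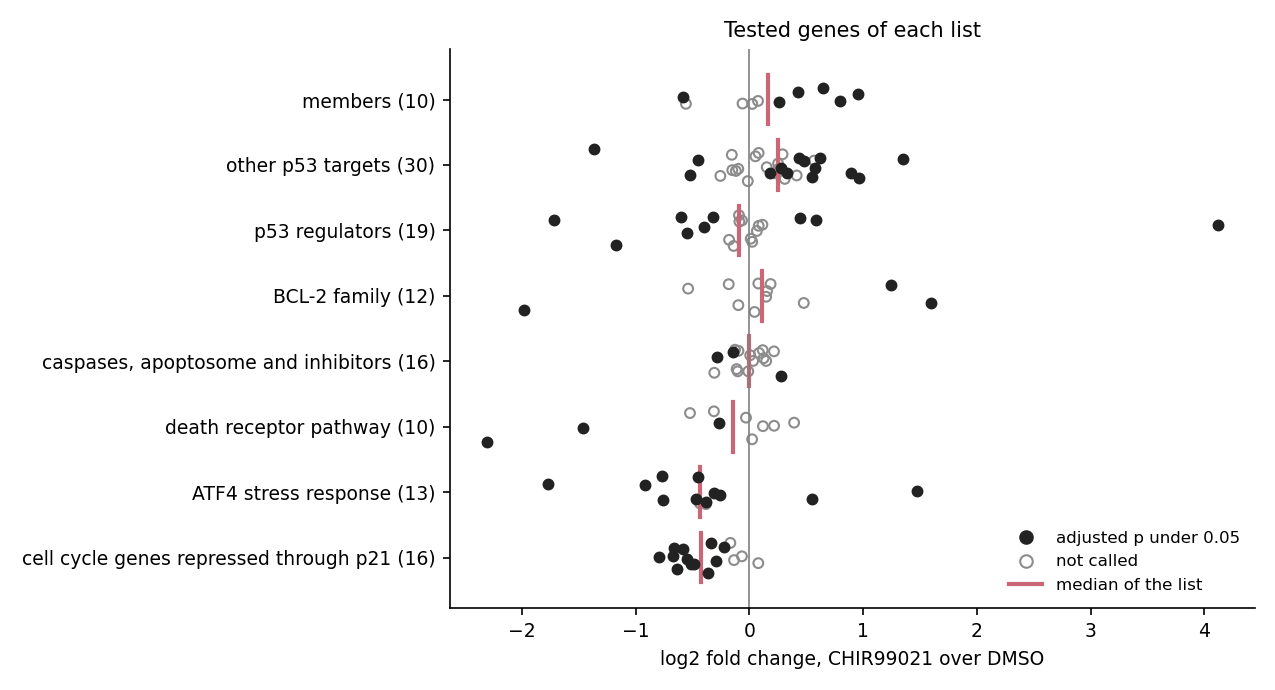
Log2 fold change (CHIR99021 over DMSO, x axis) of the tested genes of each list, with the number of genes in brackets; filled points passed an adjusted p of 0.05, open points did not, and the red bar is the median of the list. The medians of the 10 genes and of other p53 targets are 0.17 and 0.25, and those of the ATF4 and cell cycle lists -0.44 and -0.42, while the point at the far right is *Cdkn2a*, whose fitted value rests on 5 counts in the controls.

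Markers of kidney lineages and of other cell types differed between the groups beside these results. Of 10 markers of kidney lineages, 9 were lower, and their sum was 1276 to 1572 CPM with DMSO and 658 to 752 CPM with CHIR99021. *Wt1*, *Pax2* and *Sall1*, the most abundant of them, stood at 80.8, 150.5 and 273 CPM in the treated kidneys, so that these markers of the labelled tissue were present in both groups. *Six2*, the marker of nephron progenitors, named after its values were seen, fell from 203 ± 28.4 to 5.05 ± 1.70 CPM (log2FC -5.33 ± 0.21, adjusted p = 3.35e-07), and *Lhx1*, a gene of early nephrons, from 79.2 ± 16.3 to 25.1 ± 6.19 CPM. All 8 endothelial markers were lower (444 to 620 against 172 to 238 CPM), as were all 11 tested macrophage markers (105 to 391 against 28.9 to 72.5 CPM, the lowest control being replicate 4). Erythroid markers summed to 10.1 to 33.1 against 7.18 to 16.7 CPM. Liver markers summed to 1341 and 946 CPM in DMSO replicates 2 and 4, to 58.9 and 8.08 CPM in replicates 1 and 3, and to at most 7.80 CPM in the treated samples. None of the listed markers was at 0 in every sample. The libraries differed too, without overlap between the groups. The mitochondrial share of counts was 2.47% to 3.20% with DMSO and 3.48% to 4.14% with CHIR99021, the 10 most abundant genes held 4.63% to 5.39% and 6.36% to 6.94% of counts, and 24243 to 24912 and 23646 to 23938 genes were detected. In whole kidneys, fewer cells of a type and less RNA per cell cannot be told apart, and the part of these shifts in the results above was not tested. Without DMSO replicates 2 and 4, *Cdkn1a*, *Phlda3*, *Mdm2* and *Bbc3* were still called in the same direction, while *Pmaip1* (log2 fold change 0.76, adjusted p = 0.0715) and *Ccng1* (0.48, adjusted p = 0.0968) were not.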

How the data were processed

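The authors filtered their reads for adaptors and quality, mapped them with HISAT2 2.0.5 to the GRCm38 build and assigned them to genes with featureCounts, whose version and strand setting were not found in the labels or methods. Deposited were a table of raw counts per gene and a table of FPKM values, both for 30890 genes. The kits for RNA and libraries differ between the labels (Trizol, NEBNext Ultra) and the study's methods (EASYspin Plus, Hieff NGS MaxUp II). The deposited count table also has the authors' own comparison (a mean signal over samples, a fold change as a ratio, its log2 value and p-values), which was not used.

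From the counts, filterByExpr (minimum count 10, minimum total 15) kept 16723 genes, which were scaled by TMM (factors 1.04 to 1.06 with DMSO and 0.948 to 0.963 with CHIR99021) and compared with the quasi-likelihood test of edgeR 4.0.16 (R 4.3.3), with robust dispersions, no covariate and Benjamini-Hochberg adjustment over all tested genes. A gene rose or fell at an adjusted p under 0.05. The *Bax* to *Bcl2* ratio was compared by an exact permutation test over samples. No set test was run. Alternatives were other scalings and filters, DESeq2 1.42.0, limma 3.58.1 (voom, and log2 values of counts and FPKM), a replicate block, and samples left out. The test was checked on simulated counts. For 1-sample-out fits the remaining samples set the spread. Depth was 14599082 to 17751992 assigned counts per sample, which limits the precision of genes such as *Fas*.

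Deviations from the group mean correlated between samples of the same replicate number (r = 0.129, 0.244, 0.313 and 0.357) and between other pairs from -0.205 to 0.0805. Samples that share a number were thus more alike, and the reason was not tested. The study used left and right kidneys, but the labels do not tie a replicate number to an embryo. Pairing by number is therefore an assumption, and the main fit does not use it. The labels do not say whether samples hold 1 or several kidneys.

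The 10 genes and the gene lists were chosen with earlier results of these data known. Some genes of these lists are not reported here. Named beside the 10 genes were up to 4 tested genes per list with the smallest p, those needed where a count was 5 or fewer, up to 3 markers per cell type with the highest mean count, and *Bcl2*. Overlaps of exons and shared stretches were computed on GENCODE M21, and promoter windows were taken from RefSeq.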

Additional observations from a re-analysis of the deposited data

Results flagged for a closer look

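In 8 of 126 groups of 4 samples tested, for the 62 named genes and the *Bax* to *Bcl2* ratio in 2 treatment groups, 1 sample stood apart from the other 3 by more than Dixon's 95% limit on the gap over the range, where chance gives about 1 in 20. Among the 10 p53 and apoptosis genes, *Cdkn1a* was low in DMSO replicate 1 (124.9 CPM against 175 to 184 CPM) and in CHIR99021 replicate 1 (280.4 CPM against 332 to 342 CPM), and *Phlda3* in CHIR99021 replicate 1 (90.7 CPM against 115 to 118 CPM). *Cdkn1a* and *Phlda3* kept their calls in edgeR without either of these samples.

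Among the listed genes, *Rpl5* was low in DMSO replicate 4 (1112.7 CPM against 1175 to 1182 CPM). *Bcl2* was high in CHIR99021 replicate 3 (20.2 CPM against 17.5 to 17.9 CPM). *Slc7a11* was high in DMSO replicate 4 (28.9 CPM against 8.82 to 9.19 CPM). Of the markers, *Sall1* was low in CHIR99021 replicate 2 (233.1 CPM against 284 to 289 CPM) and *Alas2* in CHIR99021 replicate 1 (0.562 CPM against 1.58 to 1.74 CPM).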

How the results depend on the processing

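*Cdkn1a*, *Phlda3* and *Bbc3* kept direction and call in all 21 alternatives run for each gene. *Bax* turned to -0.061 with library totals alone, -0.053 in limma on log2(FPKM + 1) and -0.057 on log2(FPKM + 0.1), and ran from -0.012 (without DMSO replicate 1) to 0.14 with single samples left out. *Sesn2* turned to -0.021 with upper-quartile scaling, -0.11 with library totals alone, -0.10 and -0.11 on log2(FPKM + 1) and log2(FPKM + 0.1), -0.014 on normalized log2(count + 1) with and without the replicate block, and ran from -0.026 (without DMSO replicate 1) to 0.059 with single samples left out. *Trp53* was also called lower on log2(FPKM + 1) (adjusted p = 0.0102) and log2(FPKM + 0.1) (adjusted p = 0.0156). The replicate block ended no call and no direction among the 10 genes, with 5 higher and 1 lower in both fits. It raised the number of called genes from 8138 to 8472 and that of the BCL-2 family from 3 to 5.

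With library totals alone 14 of 19 p53 regulators were called (9 with TMM), 6 of 12 BCL-2 family genes (2 higher and 4 lower, against 2 and 1 with TMM) and 7 of 16 caspase and apoptosome genes (3 with TMM). Of all 16723 tested genes that scaling called 2507 higher and 6140 lower, against 3958 and 4180 with TMM. Leaving out single samples gave 4 to 6 of the 10 genes, 3 to 5 of the BCL-2 family, 3 to 5 of the death receptor pathway and 7438 to 7817 of all genes. The *Bax* to *Bcl2* difference was 1.89 to 2.17 on the log2 scale with single samples left out, each with an exact permutation p = 0.0571, the smallest that 3 against 4 samples can give. It was 2.06 with signs flipped within the replicate block (p = 0.125, exact) and 2.17 without DMSO replicates 2 and 4 (p = 0.133, exact), again the smallest these designs allow. The median over all tested genes was -0.10 and -0.13 on log2(FPKM + 1) and log2(FPKM + 0.1) and -0.14 with library totals alone. Counts of 20 to 89 for *Fas* and of 5 in the controls for *Cdkn2a* limit what can be read from these genes.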
